A study of Mus musculus with 42 samples.

Results

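Marker genes of local inhibitory interneurons and cholinergic neurons, 10 in all, were followed across 42 mouse brain arrays: the peptide genes Sst, Npy and Vip, the nitric oxide synthase gene Nos1, the calcium-buffer gene Pvalb, and the cholinergic genes Chat, Slc5a7, Slc18a3, Lhx8 and Ecel1. The members were all probe sets annotated to these 10 genes, which were 13 of the 45101 probe sets in the table. Nos1 had 4 probe sets and each of the other 9 genes had 1. All 10 genes were among the 18193 genes tested, each represented by the probe set with its highest mean, and no filter on low signal was applied. The arrays carried RNA from snap-frozen, microdissected striatum or hippocampus of C57BL6 mice, either labelled PDE10A KO or WT, and treated with either a PDE10 inhibitor (PDE10i) or vehicle (Veh). PDE10A is a phosphodiesterase that breaks down cyclic AMP and cyclic GMP and is abundant in striatal projection neurons. The striatum gave 4 KO PDE10i, 5 KO Veh, 6 WT PDE10i and 5 WT Veh arrays, and the hippocampus gave 5 KO PDE10i, 5 KO Veh, 6 WT PDE10i and 6 WT Veh arrays. The part of the gene removed in the knockout, the inhibitor's name, its dose, the time after dosing, and the age of the mice were not given in the sources used here.

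Striatal interneurons are sparse cells among the projection neurons that express PDE10A. One class releases somatostatin (Sst) and neuropeptide Y (Npy) and makes nitric oxide with the neuronal synthase encoded by Nos1, another fires fast and holds parvalbumin (Pvalb), and the large cholinergic interneurons make acetylcholine with choline acetyltransferase (Chat), take choline back up through Slc5a7 and load acetylcholine into vesicles through Slc18a3. Lhx8 is a LIM-homeobox factor needed for the cholinergic fate, and Ecel1 encodes an endopeptidase-like membrane protein of neurons. Vasoactive intestinal peptide (Vip) marks interneurons of cortex and hippocampus that mainly contact other interneurons. The hippocampus holds Sst, Npy, Nos1, Pvalb and Vip interneurons, and most of its acetylcholine comes from axons of cells that lie elsewhere, so that their messenger RNA is largely made outside the tissue. In bulk tissue, fewer cells of a type and less RNA per cell cannot be told apart.

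Sst and Vip are classical genes driven by cyclic AMP, the messenger that PDE10A removes, and the letters just upstream of their starts are shown for that reason. The windows are from the RefSeq promoter table (GRCm38.p6) and run from base -100 to base -1 before the start listed there, with Sst read on the minus strand (chr16:23890845-23890944) and Vip on the plus strand (chr10:5639118-5639217). Capitals mark the full cyclic AMP response element, TGACGTCA, in Sst and its core, TGACG, in Vip.
Sst: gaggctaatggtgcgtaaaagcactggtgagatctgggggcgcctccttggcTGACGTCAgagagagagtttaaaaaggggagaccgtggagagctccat
Vip: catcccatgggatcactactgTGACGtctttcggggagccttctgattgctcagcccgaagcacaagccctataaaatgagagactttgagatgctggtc
All 10 genes matched the table. Over the 250 bases before each listed start, the full element, searched on both strands, was found in the window of Sst alone, with its first base at -48, and 1.55% of 32851 listed promoters held it. The core, which the full element contains on each strand, was found on either strand before Sst, Nos1, Vip, Chat and Slc18a3, and 17.8% of the promoters held it. A match is a description of letters and not of a bound site.

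The genes lie on 9 chromosomes (GRCm38.p6): Ecel1 on 1, Lhx8 on 3, Nos1 on 5, Npy on 6, Vip on 10, Pvalb on 15, Sst on 16, Slc5a7 on 17, and both Chat (chr14:32408203-32465909) and Slc18a3 (chr14:32462437-32464850) on 14. Slc18a3 lies inside Chat, the arrangement known as the cholinergic locus. Slc5a7 shares chromosome 17 with Pde10a.

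The tissues matched their labels with 1 exception. Genes of striatal projection neurons were higher in striatum for all 10 of 10 tested markers, and 8 of 9 markers of hippocampal subfields were lower there. On 1 hippocampal array, WT HPC PDE10i 13, the mean of the subfield markers was 6.20 on the log2 scale, against 7.91 to 8.66 on the other 21 hippocampal arrays; its Prox1, a dentate granule cell factor, was 4.89 against 6.72 to 7.70. Values without that array are given where it moved a result. The genotype labels were less clear. Striatal Pde10a at its brightest probe set was 12.38 ± 0.29 on KO-labelled arrays (SD, n = 9) and 12.41 ± 0.26 on WT-labelled arrays (SD, n = 11), and the differences of 3 further probe sets were 0.01 to 0.22. The remaining one was lower on KO-labelled arrays, at 8.77 ± 0.43 against 9.15 ± 0.22 on WT-labelled arrays. In hippocampus the brightest probe set was 9.58 ± 0.34 on KO-labelled arrays (SD, n = 10) and 9.13 ± 0.38 on WT-labelled arrays (SD, n = 12). The hippocampal differences of the other probe sets, KO minus WT, were 0.48, 0.35, 0.31 and -0.03. Whether any of the 5 probe sets lies in the deleted part is not known. A score over 15 chromosome 17 genes, chosen in the other region and leaving out Pde10a and Slc5a7, put 8 arrays on the side of the other genotype, 4 in each region. The score was scaled to medians of 0 for WT Veh and 1 for KO PDE10i arrays, with the cutoff at 0.5. WT STR PDE10i 13 (0.516) and 15 (0.535) lay just past it, whereas KO STR Veh 25 was at 0.053. The genotype contrasts below are therefore contrasts of labels, and each was repeated without those 8 arrays. Signs of other tissue varied between arrays of 1 group. The mean of 8 glutamatergic neuron markers spanned 6.48 to 9.22 in striatum and 9.35 to 9.60 in hippocampus, the mean of 6 choroid plexus markers spanned 5.82 to 10.58 and 5.36 to 10.08, and the 3′ minus 5′ difference of the Gapdh control, a sign of RNA quality, spanned 0.10 to 1.05 and 0.04 to 0.39.

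The first question was which of the 10 genes separate striatum from hippocampus. Of the 10 genes, 5 were higher in striatum in every one of the 4 genotype and treatment groups (Lhx8, Ecel1, Slc18a3, Slc5a7 and Npy), 2 were lower in every one (Vip and Nos1), and Sst, Pvalb and Chat did not pass in any. The count was thus 7 of 10 genes in each group by limma with Benjamini-Hochberg adjustment over all genes, at an adjusted p threshold of 0.05. Region differences were common on these arrays. The share of all genes whose striatal and hippocampal ranges do not overlap was not computed. The separations given below are therefore not shown to be particular to these genes. Of all genes tested, 26.1% passed in KO PDE10i mice (10.6% higher and 15.5% lower in striatum), 27.3% in KO Veh mice (12.5% and 14.8%), 35.6% in WT PDE10i mice (18.4% and 17.2%) and 33.9% in WT Veh mice (15.9% and 17.9%). Without WT HPC PDE10i 13 the count in WT PDE10i mice was 8 of 10, Chat being the added gene, and Vip was -2.86 against the -3.09 given below.

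Lhx8, the cholinergic fate factor, was fully separated between the regions. In striatum its log2 signal was 6.55, 6.54, 7.54 and 7.35 on the KO PDE10i arrays and 6.49, 7.17, 7.49, 6.83 and 7.30 on the KO Veh arrays; the WT PDE10i arrays ran from 6.93 through a median of 7.22 to 7.54, and the WT Veh arrays gave 6.48, 7.23, 7.37, 7.05 and 6.69. All 22 hippocampal arrays lay between 3.37 and 4.08 (median 3.81), below the lowest striatal array. The striatal excess was 3.24 ± 0.19 (log2, SE) in KO PDE10i, 3.20 ± 0.18 in KO Veh, 3.46 ± 0.16 in WT PDE10i and 3.28 ± 0.17 in WT Veh mice (adjusted p = 1.57e-18 in the last, limma). The hippocampal signal was so low, as set out with Chat, that the size of this difference is not settled.

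Ecel1 likewise showed no overlap. Its log2 signal was 7.66, 8.16, 8.26 and 8.36 in KO PDE10i striatum and 7.68, 8.03, 8.35, 7.88 and 8.31 in KO Veh striatum, and all 20 striatal arrays lay between 7.64 and 8.59 (median 8.19), against 5.36 to 6.81 (median 5.82) on the 22 hippocampal arrays. The striatal excess was 2.11 ± 0.23 in KO PDE10i, 2.30 ± 0.22 in KO Veh, 2.24 ± 0.20 in WT PDE10i and 2.40 ± 0.21 in WT Veh mice (adjusted p = 6.03e-12 in the last, limma).

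The transport genes of acetylcholine were higher in striatum too. Slc18a3, the vesicular transporter, ran from 4.75 to 5.74 (median 5.25) on the 20 striatal arrays and from 3.92 to 4.66 (median 4.22) on the hippocampal arrays, with no overlap, and its striatal excess was between 0.93 ± 0.13 (WT Veh, adjusted p = 3.85e-07, limma) and 1.08 ± 0.14 (KO Veh). Slc5a7, the choline transporter, ran from 4.29 to 5.09 (median 4.61) in striatum and from 3.60 to 4.34 (median 3.87) in hippocampus; 18 of the 20 striatal arrays lay above every hippocampal array, and the excess was 0.63 ± 0.13 in KO Veh and 0.77 ± 0.13 in WT Veh mice (adjusted p = 0.000216 and 5.28e-06, limma). Chat itself, the enzyme that makes acetylcholine, ran from 4.54 to 5.18 (median 4.82) in striatum and from 4.35 to 5.17 (median 4.57) in hippocampus. Its difference was 0.29 ± 0.12 in KO PDE10i, 0.16 ± 0.11 in KO Veh, 0.22 ± 0.10 in WT PDE10i and 0.20 ± 0.10 in WT Veh mice, with adjusted p from 0.0628 to 0.313 (limma). The Chat probe set was dim: 16 genes of liver, muscle, gut, pancreas, kidney, skin and testis, taken as a guide to background, had mean signals of 3.19 to 8.62 on these arrays (median 4.33), a range that takes in every value of Chat, Slc5a7, Slc18a3, Lhx8 and Ecel1 in both regions and most striatal values of Vip. In hippocampus the medians of Lhx8, Slc5a7 and Slc18a3 lay below the median of those 16 genes. The top of the range of those 16 genes came from Krt10 (8.62), Acta1 (7.67) and Prm1 (7.08). The table holds no detection calls. Striatal Lhx8, Ecel1 and Slc18a3 stood above every hippocampal array of the same probe set. Beyond that, which of these signals stand above background was not settled. Chat passed in WT PDE10i mice without WT HPC PDE10i 13 (adjusted p = 0.0371, limma) and in KO Veh mice without KO HPC Veh 26, its highest hippocampal array at 5.17 (adjusted p = 0.0243, limma).

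**Figure D1:**
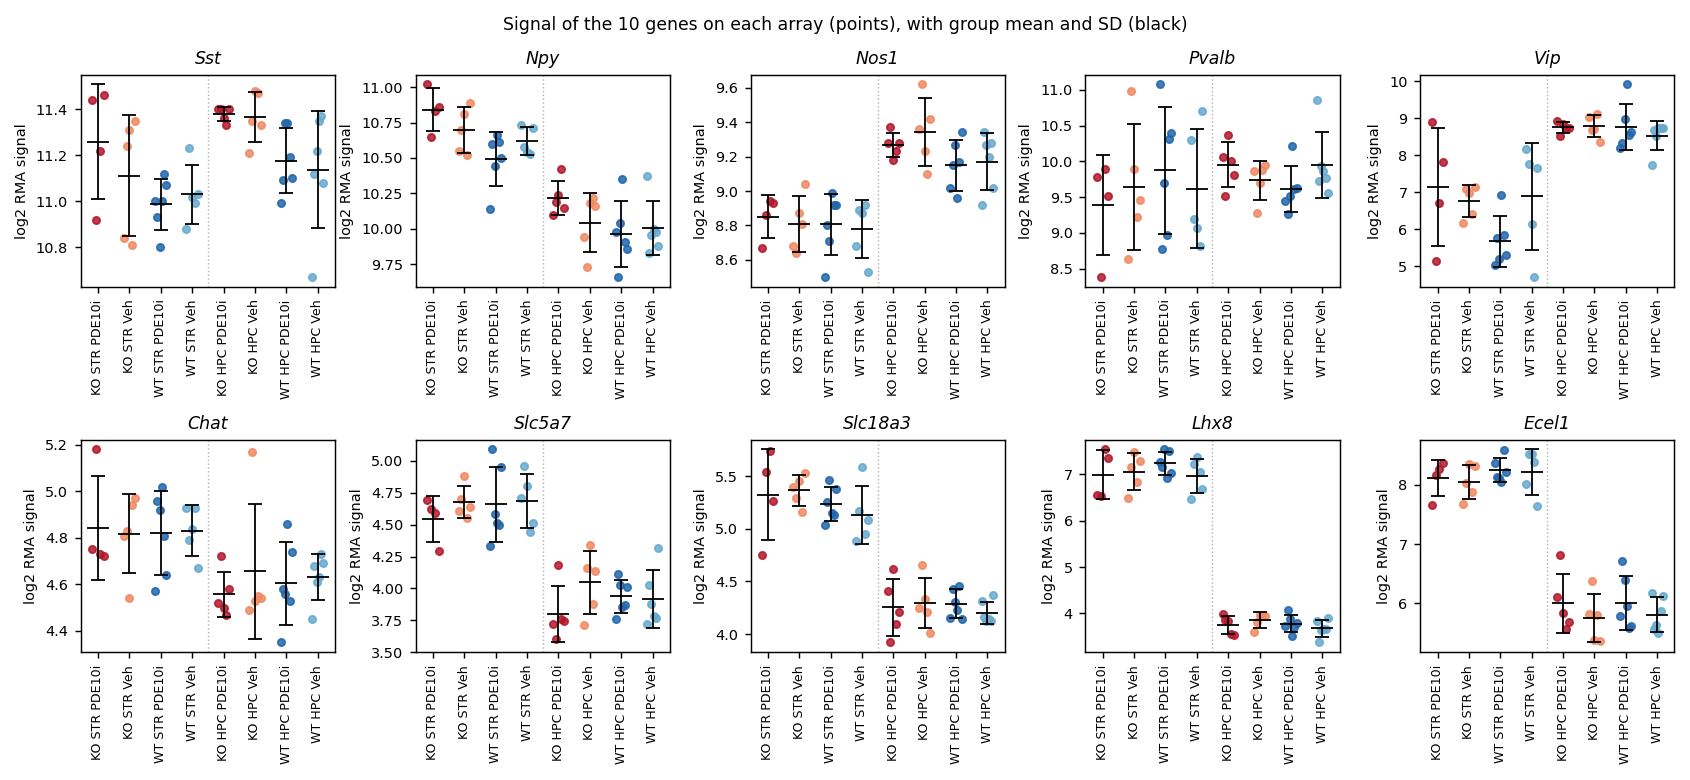
Log2 RMA signal (vertical axes, scaled to each gene and not starting at 0) of the 10 genes on each array, by group, striatum (STR) left and hippocampus (HPC) right of the dotted line; points are arrays and black marks are the group mean and SD. Lhx8, Ecel1 and Slc18a3 show no overlap between regions, and striatal Vip and Pvalb spread most widely. The share of all genes without such overlap was not computed.

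Among the somatostatin class the 3 genes did not move together between regions. Npy, the peptide shared by these cells, was 11.02, 10.65, 10.83 and 10.86 in KO PDE10i striatum and 10.55, 10.70, 10.81, 10.52 and 10.89 in KO Veh striatum, against 10.10, 10.19, 10.24, 10.42 and 10.15 in KO PDE10i hippocampus and 9.94, 9.73, 10.18, 10.22 and 10.16 in KO Veh hippocampus. Of the 20 striatal arrays, 19 lay above all 22 hippocampal arrays, the exception being WT STR PDE10i 10 at 10.14. The striatal excess was 0.62 ± 0.12 in KO PDE10i, 0.65 ± 0.11 in KO Veh, 0.53 ± 0.10 in WT PDE10i and 0.61 ± 0.10 in WT Veh mice, 1.53-fold in the last (adjusted p = 1.12e-05, limma).

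Nos1 went the other way and was lower in striatum. Its log2 signal ran from 8.51 to 9.04 (median 8.87) in striatum and from 8.92 to 9.62 (median 9.25) in hippocampus, and 14 of the 20 striatal arrays lay below every hippocampal array. The difference was -0.41 ± 0.10 in KO PDE10i, -0.53 ± 0.10 in KO Veh, -0.34 ± 0.09 in WT PDE10i and -0.39 ± 0.09 in WT Veh mice, the last 1.31-fold lower (adjusted p = 0.00104, limma). The 4 Nos1 probe sets did not all show it. A second probe set was also lower in striatum in all 4 groups, by -0.46 ± 0.09 in WT Veh mice. Another, dimmer one passed in WT PDE10i (-0.40 ± 0.13) and WT Veh mice (-0.47 ± 0.13) and not in KO PDE10i (-0.22 ± 0.15) or KO Veh mice (-0.19 ± 0.14). The dimmest, with signals of 3.75 to 4.47, did not pass in any group.

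Sst overlapped between the regions, at 10.80 to 11.46 (median 11.02) on the striatal and 10.67 to 11.48 (median 11.34) on the hippocampal arrays. Its difference was -0.12 ± 0.12 in KO PDE10i, -0.26 ± 0.11 in KO Veh, -0.19 ± 0.10 in WT PDE10i and -0.11 ± 0.10 in WT Veh mice, with adjusted p from 0.0792 to 0.486 (limma). In KO Veh mice it passed when KO STR Veh 28 or KO STR Veh 30 was left out (adjusted p = 0.0451 and 0.0344, limma).

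Pvalb, the marker of fast-spiking cells, spread widely between striatal arrays. It was 9.78, 8.38, 9.90 and 9.51 in KO PDE10i striatum and 8.64, 10.99, 9.90, 9.22 and 9.46 in KO Veh striatum; the WT PDE10i arrays ran from 8.78 through a median of 10.01 to 11.08 and the WT Veh arrays gave 10.30, 9.20, 9.07, 8.81 and 10.71. The hippocampal arrays lay between 9.27 and 10.86. The difference was -0.56 ± 0.40 in KO PDE10i, -0.09 ± 0.38 in KO Veh, 0.26 ± 0.34 in WT PDE10i and -0.34 ± 0.36 in WT Veh mice, none past the threshold. The interval in WT Veh mice ran from -1.07 to 0.40. The mean of 8 thalamic markers also varied between striatal arrays, from 6.46 to 8.04, and its relation with Pvalb was not tested.

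Vip, the marker of interneuron-contacting cells, was lower in striatum and varied there more than any other member. Its striatal log2 signal was 8.90, 5.16, 6.71 and 7.81 on the KO PDE10i arrays and 6.18, 7.10, 6.99, 6.41 and 7.15 on the KO Veh arrays, ran from 5.03 through a median of 5.54 to 6.92 on the WT PDE10i arrays, and was 8.17, 7.77, 6.14, 4.71 and 7.66 on the WT Veh arrays. Hippocampal signals lay between 7.75 and 9.92 (median 8.72), and 16 of the 20 striatal arrays lay below all of them. The difference was -1.61 ± 0.51 in KO PDE10i (adjusted p = 0.0167), -2.02 ± 0.48 in KO Veh (adjusted p = 0.00121), -3.09 ± 0.44 in WT PDE10i (adjusted p = 3.14e-07) and -1.64 ± 0.46 in WT Veh mice (adjusted p = 0.00524, limma throughout). The call for Vip was lost in WT Veh mice without WT STR Veh 4, the lowest striatal array (-1.09, adjusted p = 0.0556), and in KO PDE10i mice without KO STR PDE10i 35 (-0.95, adjusted p = 0.203) or KO STR PDE10i 37 (-1.46, adjusted p = 0.0563). WT STR Veh 4 and KO STR PDE10i 35 also had the 2 largest striatal Gapdh differences, 1.05 and 0.67. Their glutamatergic marker means were low as well, at 6.49 and 6.75. Over the 20 striatal arrays, set against group means, Vip and the Gapdh difference had r = -0.554 (adjusted permutation p = 0.240). That r was -0.067 without the 2 arrays farthest from the median of the Gapdh difference.

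**Figure D2:**
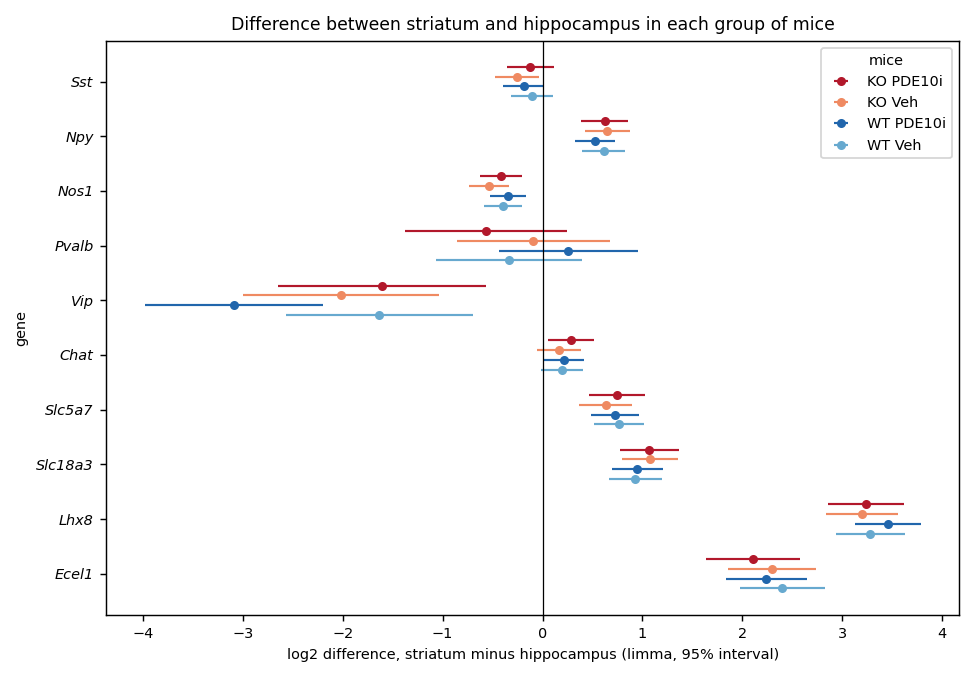
Log2 difference between striatum and hippocampus (horizontal axis, striatum minus hippocampus, limma estimate with its 95% interval) for the 10 genes (rows) in each of the 4 groups of mice. The 5 genes higher in striatum in all groups are Npy, Slc5a7, Slc18a3, Lhx8 and Ecel1, and Vip has the lowest values, down to -3.09 in WT PDE10i mice.

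Other genes of the same cells followed the same divisions in part. Of 11 further cholinergic neuron genes, 4 were higher and 0 lower in WT Veh striatum, with a list median of 0.22 against 0.03 over all genes. That is 36.4% higher, against 15.9% of all genes higher and 17.9% lower. They were led by Isl1 (3.09 ± 0.22), the LIM-homeobox partner of Lhx8 in cholinergic development, Prima1 (0.73 ± 0.12), the membrane anchor of acetylcholinesterase, and Gbx1 (0.61 ± 0.11). Of 28 further interneuron genes, 9 were higher (32.1%, against 15.9% of all genes) and 10 lower (35.7%, against 17.9%), with a list median of -0.19. The smallest p-values belonged to the GABA genes Slc32a1 (1.66 ± 0.10), Gad2 (1.49 ± 0.11) and Gad1 (0.66 ± 0.06), which striatal projection neurons also express.

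Of 23 receptors and signalling targets of these transmitters, 5 were higher (21.7%, against 15.9% of all genes) and 11 lower (47.8%, against 17.9%) in WT Veh striatum, with a list median of -0.19. All 3 neuropeptide Y receptors tested were lower, Npy2r by -2.86 ± 0.28, Npy1r by -1.02 ± 0.20 and Npy5r by -0.49 ± 0.17, while Npy itself was higher. Among somatostatin receptors, Sstr3 (-1.81 ± 0.19) and Sstr4 (-1.52 ± 0.13) were lower, Sstr5 (0.37 ± 0.14) was higher, and Sstr1 (-0.03 ± 0.10) and Sstr2 (-0.13 ± 0.28) did not pass. The nitric oxide receptor subunits Gucy1a1 (2.08 ± 0.21) and Gucy1b1 (0.65 ± 0.07) were higher where Nos1 was lower, with Gucy1a2 at 0.00 ± 0.08; the cyclic GMP kinase Prkg1 (-1.03 ± 0.14) and the synthase's adaptor Nos1ap (-0.44 ± 0.10) were lower. Of the muscarinic acetylcholine receptors, Chrm4 (0.80 ± 0.14) was higher, Chrm3 (-0.90 ± 0.15) was lower and Chrm1 (-0.14 ± 0.09) did not pass. The nicotinic subunits Chrna7 (-0.73 ± 0.14) and Chrnb2 (-0.19 ± 0.06) were lower, and Chrna3 (-0.09 ± 0.21) and Chrna4 (-0.35 ± 0.18) did not pass. Of the receptors for Vip and its relative PACAP, Vipr2 (0.26 ± 0.10) was higher, Adcyap1r1 (-0.35 ± 0.09) was lower and Vipr1 (0.28 ± 0.12) did not pass.

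**Figure D3:**
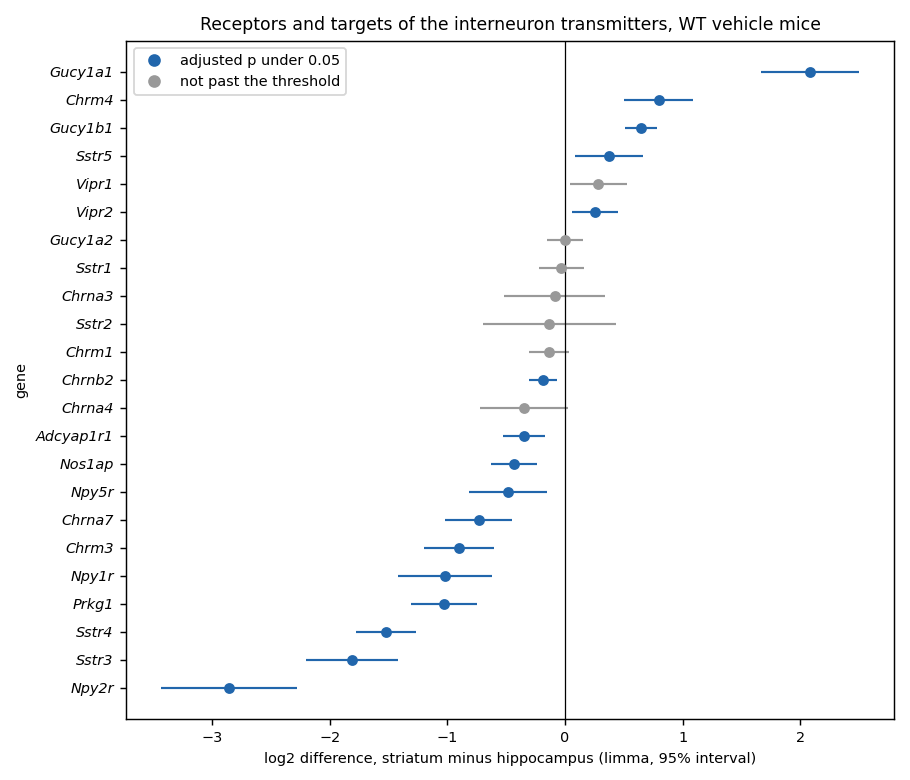
Log2 difference between striatum and hippocampus in WT Veh mice (horizontal axis, striatum minus hippocampus, limma estimate with its 95% interval) for 23 receptors and targets of the interneuron transmitters (rows). Gucy1a1 is highest at 2.08 and Npy2r lowest at -2.86, and grey points did not pass the threshold.

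The second question was whether inhibiting PDE10, or carrying the KO label under vehicle, changed the markers within a region. KO against WT mice under the inhibitor was not tested. None of the 10 genes passed in striatum by limma. For the inhibitor in KO mice 0% of all genes passed, for the KO label under vehicle 0.137%, for the inhibitor in WT mice 0.181%, and for the genotype dependence of the inhibitor effect 0%. No member had an unadjusted p under 0.05 in these 4 striatal comparisons, against 257, 1081, 1741 and 1346 of the 18193 genes. In simulated arrays of the WT striatal comparison, 68% of genes changed by 0.5 on the log2 scale and 98% of genes changed by 1 were called. The 50 genes changed at each size were drawn at random, and the noise was independent between genes. The same simulated arrays also held 50 genes changed by 2 and 50 changed by 4, which ease the adjusted threshold. In the real comparison only 0.181% of all genes passed, so the simulated shares may be too high for these data. These shares are averages and do not carry over to members of wide spread. For the inhibitor in WT striatum the SE was 0.59 for Vip and 0.45 for Pvalb.

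The 5 cholinergic genes had 15 striatal estimates (inhibitor in KO, KO label, inhibitor in WT), which lay between -0.17 and 0.28 with standard errors of 0.10 to 0.23, and no 95% interval reached beyond -0.54 or 0.71. For dim probe sets such as those of Chat and Slc5a7 these intervals bound the probe signal and not the transcript. Lhx8 was the highest, at 7.24 ± 0.24 in WT PDE10i and 6.96 ± 0.37 in WT Veh striatum (SD, n = 6 and 5), a difference of 0.28 ± 0.21 with adjusted p = 0.772 by limma. For Sst, Npy and Nos1 the 9 striatal estimates lay between -0.13 and 0.15, and no interval reached beyond -0.32 or 0.40. These 3 probe sets were among the brighter members.

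Pvalb and Vip had wider intervals. The Pvalb difference between WT PDE10i and WT Veh striatum was 0.26 ± 0.45, with an interval of -0.69 to 1.21. Vip was 5.68 ± 0.68 in WT PDE10i striatum and 6.89 ± 1.44 in WT Veh striatum (SD, n = 6 and 5). Its difference was -1.21 ± 0.59, with an interval of -2.44 to 0.02 and adjusted p = 0.530 (limma), and the groups overlapped, since WT STR Veh 4 was the lowest of all striatal arrays. Vip was 7.15 ± 1.60 in KO PDE10i and 6.77 ± 0.44 in KO Veh striatum (SD, n = 4 and 5), a difference of 0.38 ± 0.65. That difference was -0.21 without KO STR PDE10i 34, whose Vip was 8.90, and 1.04 without KO STR PDE10i 35, whose Vip was 5.16. The KO-label difference of Vip under vehicle was -0.12 ± 0.62, and leaving out single arrays moved it between -0.67 (without WT STR Veh 4) and 0.20 (without WT STR Veh 1). The 2 inhibitor effects on Vip differed by -1.59 ± 0.88, WT minus KO, with adjusted p = 0.775 (limma), and over all alternatives this value ran from -2.95 to -0.31. It was -1.0 without KO STR PDE10i 34.

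The WT value of Vip turned on how the arrays were chosen and what they were adjusted for. Leaving out the array with the largest Gapdh difference in each striatal group gave -2.0 with adjusted p = 0.0410, and 86 genes passed in all. With the mean of the glutamatergic neuron markers as a covariate the Vip difference was 0.02, adjusted p = 0.975. Over 24 alternatives its adjusted p ran from 0.0410 to 0.975 (limma).

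**Figure D4:**
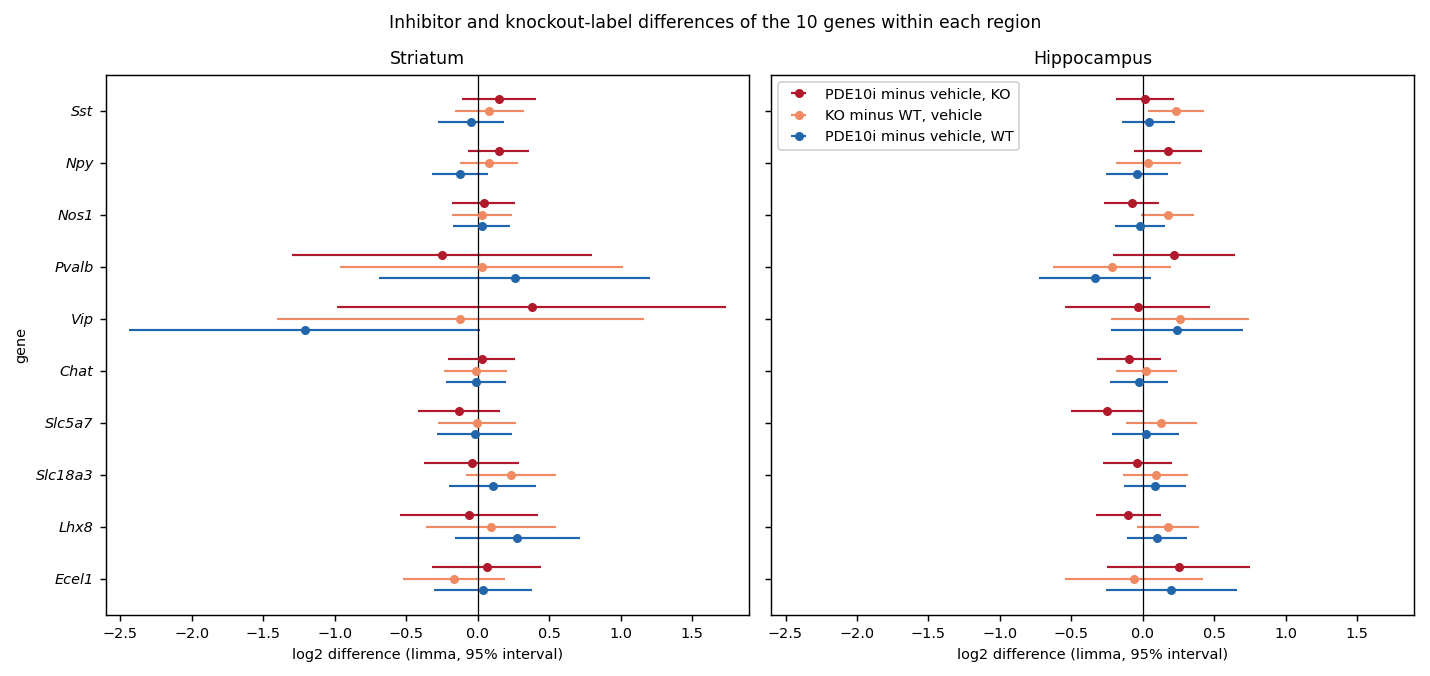
Log2 differences within striatum (left) and hippocampus (right) with 95% intervals (horizontal axes, limma) for the 10 genes (rows): PDE10i minus vehicle in KO mice, KO minus WT under vehicle, and PDE10i minus vehicle in WT mice. In striatum every interval spans 0, the widest being those of Vip and Pvalb.

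In hippocampus none of the 10 genes passed either, and 0% of all genes passed for the inhibitor in KO mice, the KO label, the inhibitor in WT mice and the genotype dependence. At an unadjusted p under 0.05 these comparisons held 695, 1205, 1948 and 2151 genes of all those tested. The single member below that level was Sst for the KO label. Its log2 signal was 11.21, 11.35, 11.48, 11.47 and 11.33 on the KO Veh arrays, against a lowest value of 10.67, a median of 11.17 and a highest of 11.37 on the WT Veh arrays. The groups overlapped, and the difference was 0.23 ± 0.09 with adjusted p = 0.697 (limma). Without WT HPC Veh 1, the lowest Sst array at 10.67, it was 0.14. Without the arrays that went against their genotype label it was 0.29. These were the lowest and highest values over 23 alternatives. For Sst, Npy and Nos1 the 9 hippocampal estimates lay between -0.08 and 0.23, and for the 5 cholinergic genes the 15 estimates lay between -0.25 and 0.25. Slc5a7 was 3.72, 3.60, 4.18, 3.76 and 3.74 in KO PDE10i hippocampus and 3.71, 4.16, 4.34, 3.88 and 4.14 in KO Veh hippocampus, a difference of -0.25 ± 0.12 with adjusted p = 0.993 (limma). Vip was 8.77 ± 0.63 in WT PDE10i and 8.53 ± 0.39 in WT Veh hippocampus (SD, n = 6 each), a difference of 0.24 ± 0.22; without WT HPC PDE10i 13, whose 9.92 was the highest hippocampal Vip signal, it was 0.01.

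Tests of the regions against each other gave no member either. The inhibitor effect in WT mice, striatum minus hippocampus, passed for 0.214% of all genes and for 0 of 10 members; Vip had the smallest p, with a difference of effects of -1.45 ± 0.64 and adjusted p = 0.333 (limma), or -1.22 without WT HPC PDE10i 13. The KO-label effect under vehicle differed between regions for 0.0495% of all genes and for 0 of 10 members, none of them at an unadjusted p under 0.05. Among the 11 further cholinergic genes, the 28 further interneuron genes and the 23 receptors and targets, no gene passed in any of these 10 within-region or between-region effect comparisons. In WT striatum, 1, 5 and 7 of them (9.09%, 17.9% and 30.4%) had an unadjusted p under 0.05 for the inhibitor, against 9.57% of all genes.

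Leaving out the 8 arrays that went against their genotype label moved no member past the threshold in these comparisons, although 769 genes in all then passed for the inhibitor in WT striatum and 145 for the KO label there. The arrays left out included WT STR PDE10i 13, 14 and 15 of the 6 in that group, of which 13 and 15 scored close to the cutoff. Vip was then -1.55 for the inhibitor in WT striatum. Between regions the count of members without those arrays was 8 of 10 in KO PDE10i mice, with Chat added, and 7 in each of the other 3 groups.

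The third question was which arrays carried the spread. Within striatum, Vip followed the glutamatergic neuron markers, genes of cortical and hippocampal excitatory cells that striatal neurons largely lack. Across the 20 striatal arrays, each set against its group mean, Pearson's r was 0.944 and Spearman's rho 0.920, with adjusted p of 0.0020 and 0.0012 from permutations within groups over 40 relations computed. Without the 2 arrays farthest from the median of the marker mean, r was 0.887. The marker mean was 8.20 ± 1.06 in KO PDE10i, 8.17 ± 0.18 in KO Veh, 7.0 ± 0.56 in WT PDE10i and 7.85 ± 0.87 in WT Veh striatum (SD, n = 4, 5, 6 and 5). Among the 8 markers, 0 passed for the inhibitor in WT striatum, with a median difference of -0.75. Npy followed the same markers less closely, with r = 0.625 and rho = 0.689 (adjusted permutation p = 0.0367 and 0.0188) and r = 0.597 without the 2 farthest arrays. Cck, a peptide gene of cortical and hippocampal neurons, was the gene most like Vip across striatal arrays, with r = 0.973 over 20 arrays, followed by Cckbr, C1ql3, Satb1 and Nrn1.

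In hippocampus, Vip ran against the subfield markers, with r = -0.832 and rho = -0.668 over 22 arrays (adjusted permutation p = 0.0056 and 0.0188). Without the 2 farthest arrays, WT HPC PDE10i 13 among them, r was -0.607. The genes most like hippocampal Vip were Prrg3 and Osbpl1a, each with r = 0.974, then Tmem44, R3hdm1 and Lamp5. Without WT HPC PDE10i 13 and WT HPC Veh 1 the r of Prrg3 was 0.924 and that of Osbpl1a 0.904. Of the 40 relations, 3 passed the threshold: Vip and Npy with the glutamatergic markers in striatum, and hippocampal Vip with the subfield markers. The r values of the genes most like Vip were not tested. No correlation with the choroid plexus markers was computed; with their mean as a covariate the Vip difference for the inhibitor in WT striatum was -1.32. The glutamatergic marker mean itself was 7.0 in WT PDE10i and 7.85 in WT Veh striatum. With it as a covariate, tissue makeup and an inhibitor effect cannot be told apart. The part of tissue makeup in the Vip differences was not tested.

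**Figure D5:**
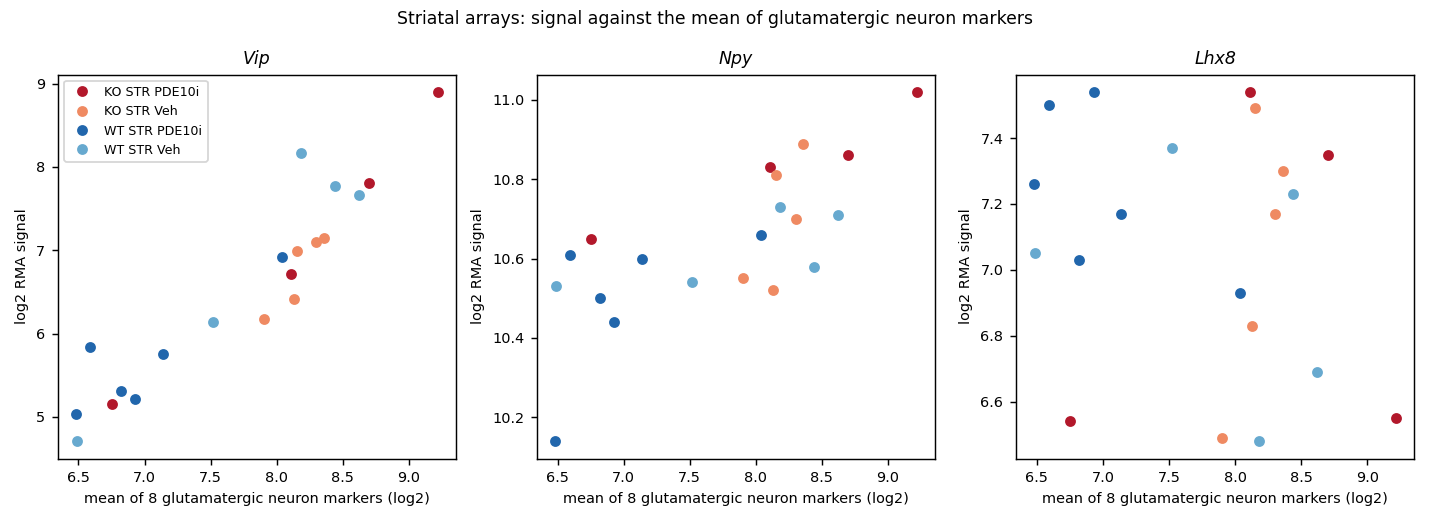
Log2 RMA signal of Vip, Npy and Lhx8 (vertical axes) against the mean log2 signal of 8 glutamatergic neuron markers (horizontal axes) on the 20 striatal arrays, coloured by group. Vip lies along a line over the whole range of 6.48 to 9.22, Npy does so more loosely, and Lhx8 shows no such order.

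Correlations among the members, given as descriptions over arrays set against their group means, linked the cholinergic genes in part. In striatum Lhx8 and Ecel1 had r = 0.774 and Slc18a3 and Lhx8 had r = 0.512, whereas Chat had r = 0.089 with Slc18a3, the gene nested inside it, and 0.011 with Slc5a7. Sst and Npy had r = 0.534, Npy and Vip 0.688, and Pvalb and Chat -0.65. In hippocampus Sst and Npy had r = -0.048, Npy and Pvalb 0.767, Sst and Vip 0.667, and Npy and Nos1 -0.656. These rested in part on the arrays WT HPC Veh 1 and WT HPC PDE10i 13: without both, the values were 0.398 for Sst and Npy, 0.515 for Npy and Pvalb, 0.4 for Sst and Vip, and -0.471 for Npy and Nos1. Without WT HPC Veh 1 alone, Sst and Npy had r = 0.525. The gene most like the mean of Chat, Slc5a7, Slc18a3 and Lhx8 in striatum was H1f2 (r = 0.818), and that most like the mean of Sst, Npy and Nos1 was Atp8b2 (r = 0.869). In hippocampus the mean of Sst, Npy and Nos1 was followed by Atp6v0d1 (r = 0.835) and Lhx6 (r = 0.807), the homeobox factor of Sst and Pvalb interneurons. These r were 0.773 and 0.716 without WT HPC Veh 1 and WT HPC PDE10i 13. Pvalb was followed most closely by Ank1 in striatum (r = 0.938) and, over all hippocampal arrays, by Snrk (r = 0.877). There Kcnc1 (r = 0.831) and Syt2 (r = 0.826), a potassium channel and a synaptic calcium sensor of fast-spiking cells, were among its 5 nearest genes. With both of those hippocampal arrays left out, Snrk fell to 0.761, below Syt2 at 0.845 and Kcnc1 at 0.806.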

How the data were processed

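Values were the deposited log2 table, which the authors made by RMA per the submitters' processing notes (background correction, quantile normalization and probe summary, with no version given); array medians lay between 6.05 and 6.12. RMA lifts low signals off zero and compresses folds of dim probe sets. The platform annotation gave 34945 of 45101 probe sets 1 gene symbol, 932 several and 9160 none. Each gene was its probe set of highest mean. Groups came from the titles; the labels do not say that arrays of a group are separate animals, so p-values measure the spread between arrays, whose number limits the precision. Moderated two-sided tests came from limma 3.58.1 under R 4.3.3, adjusted by Benjamini-Hochberg across 18193 genes; the model was fitted to the 4 groups of a region, or to all 8 groups for region contrasts. The fit was tested on simulated data. Correlations used 100000 permutations within groups.

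All members were named; of other lists, up to 3 genes of smallest p, receptors by role, and the genes of highest correlation with each marker set. Members and lists were chosen with earlier results of these data known. The 2 most alike arrays had r = 0.997 and an SD of 0.167 between them, so none were treated as duplicates.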

Additional observations from a re-analysis of the deposited data

Results flagged for a closer look

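Of the 80 sets of arrays (10 genes in 8 groups), an array lay far from the others by Dixon's criterion in 6 cases, where chance gives about 4 (1 in 20). In 3 it was the same array, WT HPC Veh 1: its Npy was 10.37 against 9.83 to 10.00 on the other 5 arrays, its Pvalb was 10.86 against 9.56 to 9.93, and its Vip was 7.75 against 8.53 to 8.74. Without that array the Sst difference for the inhibitor in WT hippocampus was -0.05 (adjusted p = 0.851, limma), against 0.04 with it. Chat was 5.17 on KO HPC Veh 26, against 4.49 to 4.55 on the other arrays of that group, and 5.18 on KO STR PDE10i 35, against 4.72 to 4.75. Slc5a7 was 4.18 on KO HPC PDE10i 36, against 3.60 to 3.76.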

How the results depend on the processing

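No value past the threshold changed sign, whereas 55 of the 112 single-gene results not past it did so under some alternative. Of 349 recomputed counts of members 347 stayed within 1.5 times the reported one or at 0, including all 191 that left out 1 array. The 2 others, for the inhibitor in WT striatum without the array of largest Gapdh difference in each striatal group (an alternative chosen after seeing the data) and for the region dependence of the inhibitor effect in WT mice with array weights, were each 1 gene, Vip, at -2.0 (adjusted p = 0.0410) and -1.86 (adjusted p = 0.0192, limma); the cause was not tested. Array weights raised the genes called in all to 617 in the second. Of 3448 single-gene values 4 lost and 11 gained the threshold; the 4 were Vip between regions, 3 of them given in the report and the other with the Gapdh difference as a covariate in WT Veh mice (-1.13, adjusted p = 0.0525). Leaving out genes below the 25th percentile removed Chat, Slc5a7 and Slc18a3 from the region fits and left 5 members past the threshold in each group. The title number as a replicate block left 7 members past the threshold in each of the 4 region contrasts, with 4194 to 6294 genes called in all, and 0 in both region-dependence contrasts. The numbers were not taken to pair arrays. Over 20 pairs between regions the correlation of deviations from group means was -0.382 to 0.305, with 6 over 0.1 and 4 arrays best matched by their own number. Tissue makeup also varied between arrays, so these correlations cannot show whether equal numbers mark the same animal. By the chromosome 17 score, KO Veh 25 and WT PDE10i 14 went against their label in both regions. KO Veh 26 and WT PDE10i 12, 13 and 15 did so in a single region. The dim probe sets of Chat, Slc5a7 and Slc18a3 give the least room to see a change.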
